A study of Mus musculus with 8 samples.

Results

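The circadian clock genes of islets are described here by 10 genes, all of which were matched by Ensembl identifier to a mouse symbol on GRCm38, out of 55487 identifiers in each deposited table. They are Arntl, Clock, Per1, Per2, Per3, Cry1, Cry2, Nr1d1, Nr1d2 and Dbp, chosen by name, with earlier results of these data known. The samples were pancreatic islets, picked by hand from C57BL/6J mice. In 5 samples the gene of insulin-degrading enzyme was intact (Ide+/+), and 3 samples lacked it (Ide-/-). All animals had eaten a diet with 60% of its energy as fat for 2 weeks from an age of 10 weeks, and the labels call them female. The labels do not say how many animals a sample holds, how the Ide allele was made, or at what time of day islets were collected. The titles call the samples of each genotype biological replicates, without naming the animals behind them.

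The mammalian clock is a loop of transcription. The proteins CLOCK and BMAL1 (the product of Arntl) bind E-box sequences as a pair and switch on the Per and Cry genes, whose products then block that pair. A second loop joins it, in which the nuclear receptors REV-ERB alpha and beta (Nr1d1 and Nr1d2) repress Arntl through RORE sequences. DBP, an output factor, binds D-box sequences, among others in Per genes. Transcripts of the loop therefore peak in turn through the day, with Arntl opposite to Nr1d1, Dbp and the Per genes and with Cry1 later than the Per genes. Islet cells carry their own clock, which is known to shape insulin secretion.

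Promoters are shown for Arntl, Cry1 and Per3, the 3 clock genes with the smallest p between the genotypes, because each holds a sequence through which the loop is known to act. They are RefSeq promoters on GRCm38.p6, each of 300 bases from 250 before the gene's start to 50 after, printed 5′ to 3′ on the gene's own strand. Capitals mark matches to the E-box (CACGTG), the E-prime box (CACGTT), the D-box (TTATGTAA or TTACGTAA), the RORE core (TAGGTCA or TGGGTCA) and the cAMP response element (TGACGTCA), each searched on both strands, and no 2 matches shown overlap. The second of 2 Arntl promoters (chr7:113207261-113207560, plus strand) holds a RORE core, the Cry1 promoter (chr10:85185005-85185304, minus strand) an E-prime box read on the opposite strand and an E-box, and the Per3 promoter (chr4:151044616-151044915, minus strand) 2 copies of the D-box.
Arntl: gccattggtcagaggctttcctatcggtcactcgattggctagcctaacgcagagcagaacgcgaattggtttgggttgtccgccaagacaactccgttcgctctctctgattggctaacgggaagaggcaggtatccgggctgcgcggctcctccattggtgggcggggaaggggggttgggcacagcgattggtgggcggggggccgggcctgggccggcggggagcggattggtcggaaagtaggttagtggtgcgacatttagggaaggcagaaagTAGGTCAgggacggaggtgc
Cry1: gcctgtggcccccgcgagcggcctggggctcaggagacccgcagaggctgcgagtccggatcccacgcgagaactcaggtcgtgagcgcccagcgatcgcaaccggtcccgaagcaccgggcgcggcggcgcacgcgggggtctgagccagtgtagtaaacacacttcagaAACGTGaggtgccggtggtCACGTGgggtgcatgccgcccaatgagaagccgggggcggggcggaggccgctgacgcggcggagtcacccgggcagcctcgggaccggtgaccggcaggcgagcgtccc
Per3: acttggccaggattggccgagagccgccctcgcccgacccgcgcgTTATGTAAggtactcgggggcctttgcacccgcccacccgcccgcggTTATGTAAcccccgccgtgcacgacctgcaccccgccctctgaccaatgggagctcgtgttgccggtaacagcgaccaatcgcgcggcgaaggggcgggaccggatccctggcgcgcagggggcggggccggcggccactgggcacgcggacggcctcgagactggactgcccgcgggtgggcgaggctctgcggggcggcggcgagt

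Of all 32851 promoters of this length, 7.15% hold the E-box and 11.4% the E-box or the E-prime box. A D-box stands in 1.06% and a RORE core in 6.45%. Among the clock genes, 9 of 10 had a promoter entry, with 13 promoters in all. Matches were also found for Per1 (an E-box) and for Cry2 and Nr1d1 (an E-prime box each). At least 1 match stood in 6 of the 9 genes and in 6 of the 13 promoters. The share of all promoters with any of these sequences was not counted, so the 6 are not read as particular to the clock genes. The window for Dbp, Clock and Nr1d2 holds none of these letters. Per2 had no entry.

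The libraries differed in ways that touch every result. Totals ran from 19277269 to 33371642 counts in Ide+/+ and from 7143415 to 17445935 in Ide-/-, and the 10 clock genes together had 1175 to 6321 counts per library. The markers of acinar cells, the digestive enzyme cells around islets, took 22.0% to 37.5% of counts in Ide+/+ and 0.653% to 1.37% in Ide-/- (exact permutation p = 0.0179, two-sided, the smallest that 56 splits allow). Islet endocrine markers took 4.74% to 15.3% and 21.1% to 29.6%, and mitochondrial transcripts 0.512% to 9.43% and 9.81% to 28.2%. All 30 acinar markers were lower in Ide-/- islets (median log2 fold change −6.32), as were 8 of 10 duct markers, 8 of 10 macrophage markers, 1 of 10 endothelial and 1 of 8 fibroblast markers. Duct markers took 0.0774% to 0.137% of counts in Ide+/+ and 0.0472% to 0.0598% in Ide-/-, and macrophage markers 0.0132% to 0.0463% and 0.0153% to 0.0196%. Acinar cells have a clock of their own. In bulk samples fewer cells of a type and less RNA per cell cannot be told apart. Ide itself was 19.5 to 39.2 CPM in Ide+/+ libraries and 0.167 to 0.367 in Ide-/- libraries.

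Among the Ide+/+ libraries, 3 stand apart. Replicate 1 had 692 counts of Xist and 0 of the Y-linked Ddx3y, against at most 11 and at least 503 in any other library, so 1 library looks female and 7 male, against the labels. It also had the lowest mitochondrial share. Replicates 2 and 3 were far closer to each other than any other pair: 15.3% of their genes differed beyond counting noise (unadjusted p under 0.05), against 38.1% to 93.4% for other pairs within a genotype. They were kept as 2 samples, and named genes and lists whose call changes with the pair counted as 1 library, or without replicate 1, are given that way too.

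Levels are in TMM-scaled CPM, counts relative to a library total that a TMM factor rescales, to compare 1 gene between libraries. These factors ran from 0.405 to 1.18 in Ide+/+ and from 1.53 to 2.06 in Ide-/- libraries, so CPM differences between the genotypes depend on this scaling. A positive log2 fold change means more in Ide-/- islets, and SE is its standard error. Of the 10 clock genes, 2 were higher (Per3 and Dbp), 2 were lower (Arntl and Cry1) and 6 were not called in Ide-/- islets, at an adjusted p under 0.05 over 16266 tested genes (edgeR quasi-likelihood test). Across all tested genes 21.1% were called, 10.4% higher and 10.6% lower. At that rate about 1 of 10 genes would be called in each direction, so 2 of 10 is not read as particular to the clock genes. In CPM the groups did not overlap for 4 of the 10, against 33% of all tested genes. In TPM the groups did overlap for Arntl (1.3 to 3.64 in Ide+/+ and 1.1 to 2.75 in Ide-/-). They also did for Cry1 (1.3 to 3.58 and 0.87 to 1.56). The median log2 fold change was 0.44 for the 10 genes and −0.01 for all tested genes. Calls over all genes were 49.6% upward, but 93.6% upward on log2(TPM + 1) values, where the median of all genes moved to 0.50.

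The same 2 and 2 counts were given by DESeq2, which called 26% of all genes, by limma-voom (21.5%) and with acinar and mitochondrial genes left out before scaling (21%). On log2(TPM + 1) values limma called 5 clock genes higher and 0 lower, beside 39.3% of all genes. With 1 library left out the 2 lower clock genes stayed at 2, and the higher ones numbered 0 to 3. The higher count was 2 without Ide+/+ replicate 2 (19.9% of all genes called), 1 without Ide-/- replicate 2 (9.36%) and 0 without Ide-/- replicate 3 (9.07%). With the replicate number as a block it was 1 (7.2%).

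**Figure D1:**
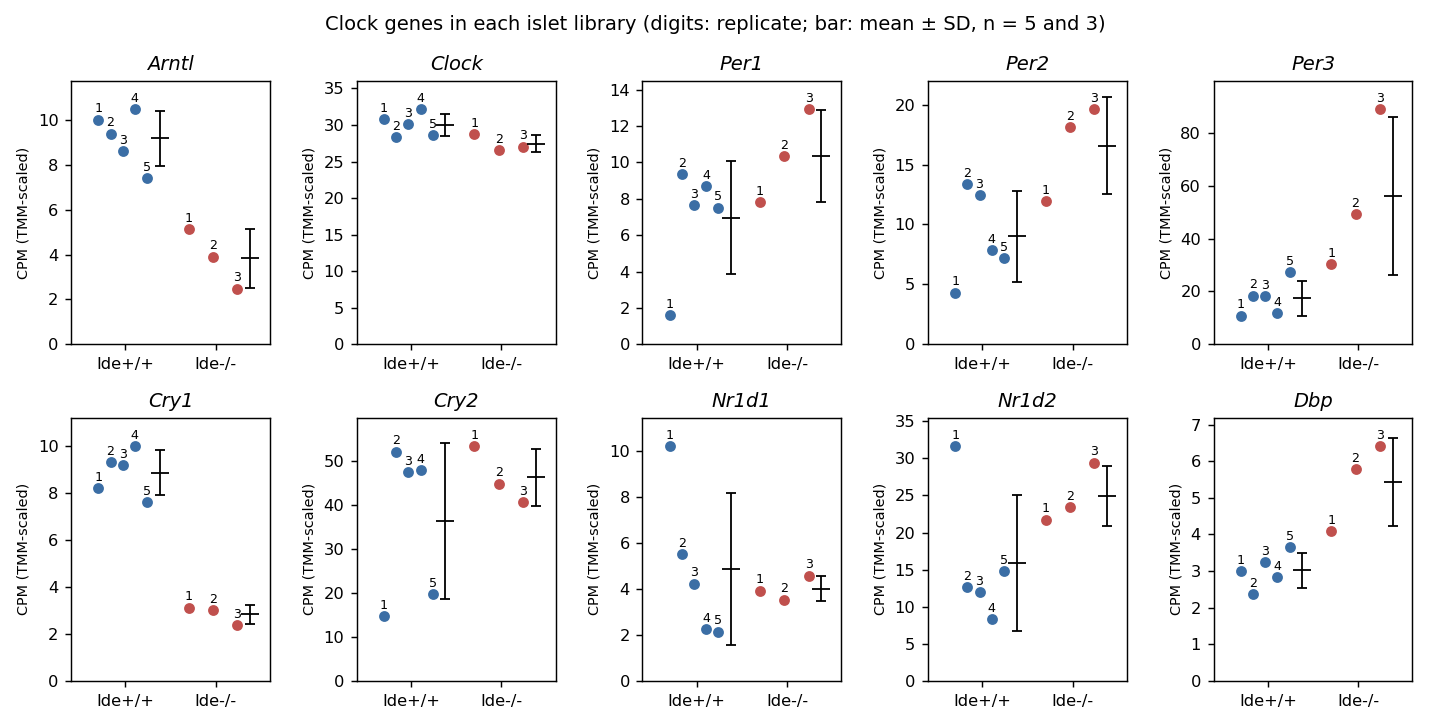
TMM-scaled CPM of the 10 clock genes in each library, 1 panel per gene with its own axis from 0. Blue points are the 5 Ide+/+ and red points the 3 Ide-/- libraries, digits give the replicate, and bars are mean ± SD. Arntl and Cry1 lie lower and Per3 and Dbp higher in Ide-/- libraries with no overlap, and Ide+/+ replicate 1 lies apart for Per1 (1.603 CPM) and Nr1d2 (31.7 CPM).

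The activating pair comes first. Arntl (ENSMUSG00000055116; GRCm38 chromosome 7, 113207465 to 113314126, plus strand), which encodes BMAL1, fell in Ide-/- islets. It stood at 10.0, 9.39, 8.60, 10.5 and 7.40 CPM in Ide+/+ replicates 1 to 5, and 5.12, 3.90 and 2.48 CPM in Ide-/- replicates 1 to 3. All 3 Ide-/- libraries lay below all 5 Ide+/+ libraries, a pattern that 15.6% of tested genes showed. The means were 9.18 ± 1.22 (SD, n = 5) and 3.83 ± 1.33 CPM (SD, n = 3), which gave −1.23 on the log2 scale (SE 0.25, adjusted p = 0.00587 by edgeR). The lowest value rested on 27 counts. The call held without any 1 of the 8 libraries (adjusted p 0.00525 to 0.0336). It was lost on log2(TPM + 1) values (−0.24 beside 0.50 for the median gene, adjusted p = 0.535, limma).

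Clock (ENSMUSG00000029238; chromosome 5, 76209868 to 76304792), the partner of BMAL1, is known to cycle little in most tissues. It had 30.8, 28.3, 30.1, 32.2 and 28.7 CPM across Ide+/+ replicates 1 to 5, against 28.7, 26.6 and 27.0 CPM across Ide-/- replicates 1 to 3. The groups overlapped, and the highest library was 1.14 times the lowest in Ide+/+ and 1.08 times in Ide-/-, the least spread of the 10 genes in either group. The difference of −0.13 on the log2 scale (SE 0.16) did not pass (adjusted p = 0.606), and its sign turned on log2(TPM + 1) values (0.91, adjusted p = 0.0536, limma). Within a library, the ratio of Arntl to Clock TPM ran from 0.443 to 0.802 among Ide+/+ libraries, against 0.160 to 0.268 among Ide-/- ones.

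Among the repressors of the loop, Cry1 fell and Per3 rose. Cry1 (ENSMUSG00000020038; chromosome 10, 85131700 to 85185064), a cryptochrome that blocks the CLOCK pair, stood at 8.22, 9.32, 9.21, 10.0 and 7.62 CPM across Ide+/+ replicates 1 to 5, against 3.12, 3.01 and 2.38 CPM across Ide-/- replicates 1 to 3. The gap between the groups was wider than the range within either. The means were 8.87 ± 0.95 and 2.84 ± 0.40 CPM, and the change of −1.63 on the log2 scale (SE 0.20; edgeR, adjusted p = 6.31e-04) had the smallest p of the 10 genes. This call also held without any 1 of the 8 libraries (adjusted p 4.64e-04 to 0.00631) and was lost on log2(TPM + 1) values (−0.50 beside 0.50 for the median gene, adjusted p = 0.175, limma).

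Cry2 (ENSMUSG00000068742; chromosome 2, 92403646 to 92434043), the other cryptochrome, was not called. It had 14.7, 52.2, 47.5, 47.9 and 19.7 CPM across Ide+/+ replicates 1 to 5, against 53.5, 44.9 and 40.7 CPM across Ide-/- replicates 1 to 3. Ide+/+ replicates 1 and 5 were low and the other 3 lay among the Ide-/- values. The difference of 0.34 (log2, SE 0.37) did not pass, with an adjusted p of 0.539. An RNA on the opposite strand, D930015M05Rik, shares 295 exon bases with Cry2 but had at most 34 counts.

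Of the 3 period genes, whose products enter the nucleus with the cryptochromes, only Per3 passed the test (edgeR, over all 8 libraries), and the difference among the 3 was not tested. Per3 (ENSMUSG00000028957; chromosome 4, 151003652 to 151044665) had 10.8, 18.4, 18.4, 11.9 and 27.4 CPM across Ide+/+ replicates 1 to 5, against 30.4, 49.3 and 89.1 CPM across Ide-/- replicates 1 to 3. The groups did not overlap, as in 17.4% of tested genes with Ide-/- higher, but the nearest libraries were close and the Ide-/- values spread 2.93 times from lowest to highest. The means were 17.4 ± 6.61 and 56.3 ± 29.96 CPM, or 1.69 on the log2 scale (SE 0.35; edgeR, adjusted p = 0.00717). Without Ide-/- replicate 3 the change was 1.20 and the call was lost (adjusted p = 0.0515). Per3 was called on log2(TPM + 1) values too.

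Per2 (ENSMUSG00000055866; chromosome 1, 91415982 to 91459324), a core period gene that is also induced by other signals, had 4.31, 13.4, 12.4, 7.83 and 7.19 CPM across Ide+/+ replicates 1 to 5, against 11.97, 18.1 and 19.6 CPM across Ide-/- replicates 1 to 3. Ide-/- replicate 1 lay among the Ide+/+ libraries and the other 2 above them. The difference of 0.84 (log2, SE 0.32) had an adjusted p of 0.0769 and did not pass. It passed without Ide+/+ replicate 2 (1.03, adjusted p = 0.0382) and on log2(TPM + 1) values (1.09, adjusted p = 0.0146, limma). Per1 (ENSMUSG00000020893; chromosome 11, 69095217 to 69109960), which is known to respond quickly to cAMP and glucocorticoid signals, had 1.603, 9.34, 7.64, 8.72 and 7.51 CPM across Ide+/+ replicates 1 to 5, against 7.82, 10.3 and 12.9 CPM across Ide-/- replicates 1 to 3. Ide+/+ replicate 1 was far below the rest, on 16 counts, and the difference of 0.54 (log2, SE 0.39) had an adjusted p of 0.341. Without that library it was 0.29 (adjusted p = 0.273), and on log2(TPM + 1) values it passed (0.88, adjusted p = 0.0286, limma).

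The second loop showed no call over all 8 libraries. Nr1d1 (ENSMUSG00000020889; chromosome 11, 98767932 to 98775333) had 10.2, 5.50, 4.23, 2.24 and 2.15 CPM across Ide+/+ replicates 1 to 5, against 3.93, 3.54 and 4.58 CPM across Ide-/- replicates 1 to 3. The Ide+/+ values spanned 4.76 times and enclosed all Ide-/- values. The difference was −0.28 (log2, SE 0.44) with an adjusted p of 0.682, and it turned to 0.11 without Ide+/+ replicate 1 and to 0.45 on log2(TPM + 1) values, so no direction is given. Nr1d1 shares 263 exon bases with Thra on the opposite strand, and since the strand setting is not known, reads of this stretch cannot be told apart.

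Nr1d2 (ENSMUSG00000021775; chromosome 14, 18204054 to 18239127), which encodes REV-ERB beta, had 31.7, 12.7, 11.98, 8.36 and 14.8 CPM across Ide+/+ replicates 1 to 5, against 21.8, 23.4 and 29.4 CPM across Ide-/- replicates 1 to 3. All Ide-/- libraries lay above Ide+/+ replicates 2 to 5 and below replicate 1. The difference of 0.66 (log2, SE 0.35) did not pass (adjusted p = 0.196). It was called without Ide+/+ replicate 1 (1.05; edgeR, adjusted p = 0.00388) and on log2(TPM + 1) values (1.295, adjusted p = 0.00498, limma). Ide+/+ replicate 1 thus paired the highest Nr1d1 and Nr1d2 of its group with the lowest Per1, Per2 and Per3, and it is also the library that looks female and that had the fewest mitochondrial counts. The part of sex in this was not tested, since 1 library holds it.

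Dbp (ENSMUSG00000059824; chromosome 7, 45705088 to 45710203), the output factor, rose in Ide-/- islets. It had 3.01, 2.37, 3.24, 2.83 and 3.65 CPM across Ide+/+ replicates 1 to 5, against 4.09, 5.78 and 6.42 CPM across Ide-/- replicates 1 to 3. The groups did not overlap, with a narrow gap between Ide+/+ replicate 5 and Ide-/- replicate 1. The means were 3.02 ± 0.48 and 5.43 ± 1.20 CPM, or 0.85 on the log2 scale (SE 0.24; edgeR, adjusted p = 0.0258). Removing replicate 2 or 4 of Ide+/+, or replicate 2 or 3 of Ide-/-, ended this call (adjusted p 0.0542 to 0.111). So did the replicate number as a block (0.0986) and scaling libraries to secretory granule genes (0.96, adjusted p = 0.0941). It just held with Ide+/+ replicates 2 and 3 counted as 1 library (adjusted p = 0.045). Dbp shares 539 exon bases with Sphk2 on the opposite strand, which had 16 to 287 counts, so its reads may be mixed with those of Sphk2.

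**Figure D2:**
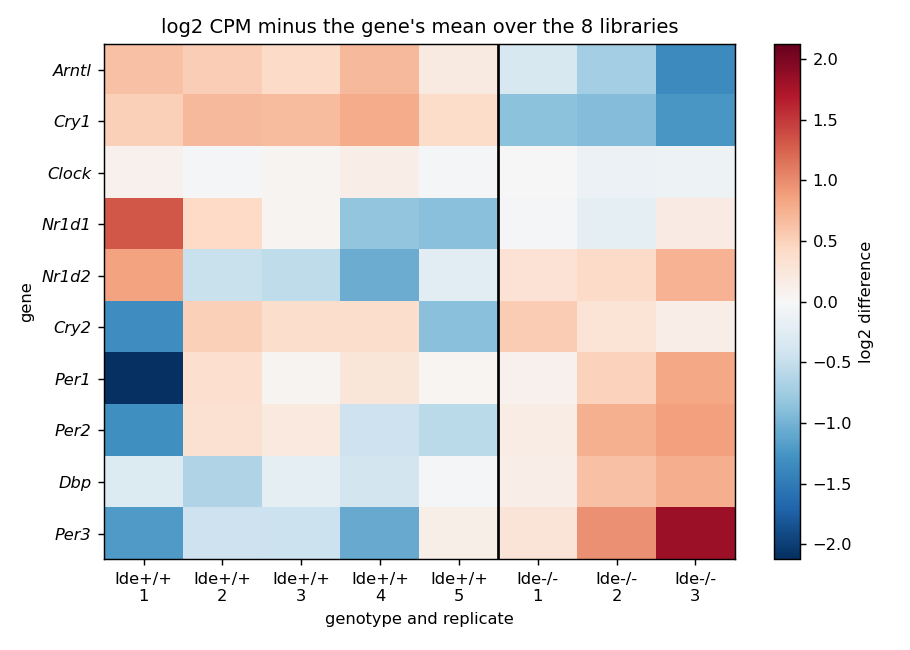
Difference in log2 CPM of each clock gene (rows) from its own mean over the 8 libraries (columns), red above and blue below that mean. Arntl and Cry1 are red in all 5 Ide+/+ and blue in all 3 Ide-/- libraries, Clock is near 0 throughout, and Per3 is farthest above its mean in Ide-/- replicate 3.

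The Ide-/- libraries also differed among themselves. The library with the most Per3 (replicate 3, 89.1 CPM) had the least Arntl (2.48 CPM), and the library with the least Per3 (replicate 1, 30.4 CPM) had the most Arntl (5.12 CPM). In all, 5 of the 10 genes (Per1, Per2, Per3, Nr1d2 and Dbp) were highest in replicate 3 and lowest in replicate 1, and 3 (Arntl, Cry1 and Cry2) the reverse. The share of all tested genes with either order was not counted, so these orders are not read as particular to the clock genes. Depth and the mitochondrial share differed between the same libraries: replicates 1, 2 and 3 had 17445935, 13237930 and 7143415 counts and mitochondrial shares of 9.81%, 15.1% and 28.2%. Whether these had a part in the order of the clock genes was not tested.

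Ratios within a library do not depend on how libraries are scaled to each other, though they do depend on which cells the library holds. The ratio of Arntl to Dbp, in TPM (a level scaled by transcript length), was 1.07, 1.09, 0.817, 1.22 and 0.684 across Ide+/+ replicates 1 to 5, against 0.401, 0.230 and 0.144 across the Ide-/- ones. Every Ide-/- library was below every Ide+/+ library, and the mean log2 ratio was −0.07 ± 0.34 (SD, n = 5) and −2.08 ± 0.74 (SD, n = 3). The ratio of Arntl to Per2 was 4.05, 1.46, 1.41, 2.62 and 2.10 across Ide+/+ replicates 1 to 5, against 0.905, 0.417 and 0.302 across the Ide-/- ones. Ratios to Per1, Per3, Nr1d2 and Clock did not overlap between the genotypes either, while the ratio to Nr1d1 did (0.970 to 4.29 and 0.547 to 1.17). These ratios are made from the genes described above and were not tested. Arntl alone did not overlap between the genotypes in CPM. How often a ratio of Arntl to any other tested gene separates the genotypes was not counted. The lack of overlap is therefore not read as particular to the clock genes. The ratio of Arntl to Cry1 ran the other way, from 0.966 to 1.24 among Ide+/+ libraries and from 1.26 to 1.76 among Ide-/- ones. Arntl thus differed relative to Dbp and Per2 among libraries, both between and within genotypes. It also did relative to Clock, which is known to cycle little. The time of collection is not given in the sources used here, genotype and collection time cannot be told apart, and the part of collection time was not tested.

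**Figure D3:**
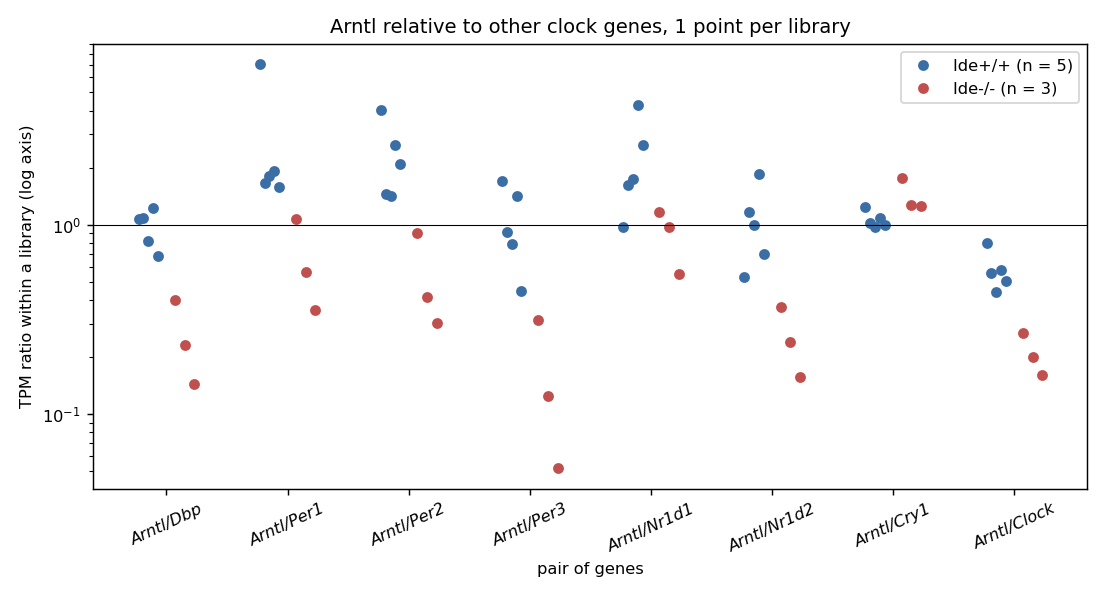
Ratio of Arntl TPM to the TPM of 8 other clock genes within each library, on a log axis, blue for Ide+/+ (n = 5) and red for Ide-/- (n = 3). The Arntl to Dbp ratio is 0.684 to 1.22 in the blue points and 0.144 to 0.401 in the red, and only the ratio to Nr1d1 overlaps between the genotypes.

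The acinar share moved with genotype beside each of these results. Within Ide+/+ the share ran from 22.0% (replicate 2) to 37.5% (replicate 1). In these libraries the highest CPM over the lowest was 1.42 for Arntl, 1.31 for Cry1, 1.54 for Dbp and 2.53 for Per3. Among the uncalled clock genes it ran from 1.14 (Clock) to 5.83 (Per1). The part of the acinar share in these spreads was not tested. No Ide+/+ library had a share near those of Ide-/- (0.653% to 1.37%), so the acinar share and the genotype cannot be told apart in the differences of Arntl, Cry1, Per3 and Dbp. A fit that added this share as a term called 0 of the 10 clock genes and 0 genes in all by edgeR (931 at an unadjusted p under 0.05). The median SE was then 1.59 in place of 0.29.

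By level per length, Cry2 had the highest median of the 10 genes in both genotypes, 10.7 TPM in Ide+/+ and 19.4 TPM in Ide-/-. In Ide+/+ it was followed by Clock (4.12 TPM), Nr1d2 (3.07), Per3 (2.90), Arntl (2.36), Cry1 (2.19), Dbp (1.94), Nr1d1 (1.67), Per1 (1.23) and Per2 (0.900), and the ranges of all neighbours in this order overlapped. In Ide-/- Per3 came next (14.3 TPM), then Clock (8.87), Dbp (7.66), Nr1d2 (7.42), Per2 (3.64), Per1 (3.11), Nr1d1 (2.01), Arntl (1.78) and Cry1 (1.40). There the ranges of Nr1d2 and Per2, and of Per1 and Nr1d1, did not overlap, and those of the other neighbours did. Arntl and Cry1 stood in the middle of the order in Ide+/+ and at its end in Ide-/-. All 10 genes were scarce transcripts, none above 26.4 TPM in any library.

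Most other genes of the clock were not called. Of 24 genes 23 were tested, 2 were higher, 2 lower and 19 not called, and their median log2 fold change was 0.05. The share called was no larger than the 21.1% of all tested genes. Without Ide+/+ replicate 1, 4 were lower, beside 2139 of all 16028 tested genes. Noct, the gene of the rhythmic enzyme nocturnin, rose from a mean of 12.3 ± 5.77 CPM to 33.3 ± 5.93 CPM (1.42 on the log2 scale; edgeR, adjusted p = 0.0197). Tef, a relative of Dbp that binds the same sequence, rose from 8.51 ± 1.501 to 13.9 ± 1.79 CPM (0.69 on the log2 scale, adjusted p = 0.0269). Bhlhe40, which encodes the E-box repressor DEC1, fell from 11.9 ± 2.62 to 6.08 ± 0.66 CPM (−0.96 on the log2 scale, adjusted p = 0.0113). These calls rested on few libraries: Noct was lost without Ide-/- replicate 1 or 3 and Bhlhe40 without Ide-/- replicate 1. Tef was lost without Ide+/+ replicate 4 or any 1 Ide-/- library. Of 10 settings that kept all libraries, Bhlhe40 held in 5, Tef in 7 and Noct in 8. For these 3 genes too, the acinar share and the genotype cannot be told apart.

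**Figure D4:**
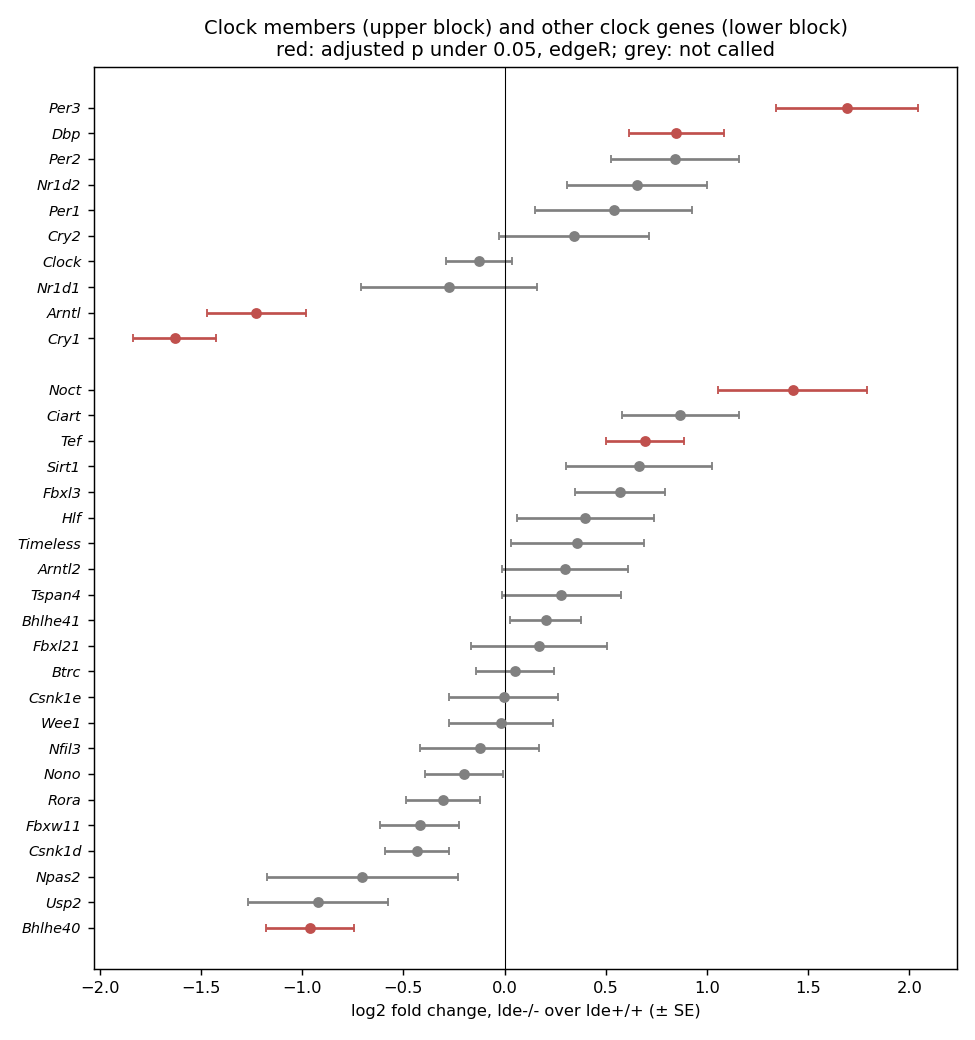
Log2 fold change with its SE for the 10 clock genes (upper block) and other tested clock genes (lower block), red where the adjusted p was under 0.05 (edgeR). In the upper block Per3 (1.69) and Dbp (0.85) are red on the right and Cry1 (−1.63) and Arntl (−1.23) on the left.

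Per1 and Per2 also answer to hormones, temperature and cAMP, so genes of those responses were counted beside them. Of 8 glucocorticoid-induced genes (median log2 fold change −0.55) 2 were lower and 0 higher (edgeR; 1 higher at an unadjusted p under 0.05, and limma on log2(TPM + 1) called 2 higher). Of all tested genes 10.4% were higher and 10.6% lower by edgeR, and limma on log2(TPM + 1) called 5987 of the 16266 higher. Neither 2 of 8 is read as particular to this list. Pdk4, a kinase gene that spares glucose, fell from 12.7 ± 2.22 to 5.69 ± 0.92 CPM (adjusted p = 0.00376), and the salt and stress kinase gene Sgk1 from 92.3 ± 56.9 to 22.7 ± 4.39 CPM (adjusted p = 0.0232). Sgk1 was 17.5 CPM in Ide+/+ replicate 1, below all Ide-/- libraries, and its call was lost without Ide+/+ replicate 4 or any 1 Ide-/- library. Limma on log2(TPM + 1) values called neither Pdk4 (adjusted p = 0.742) nor Sgk1 (0.223). Without Ide+/+ replicate 1, 4 of the 8 were lower by edgeR, beside 2139 of all 16028 tested genes.

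Of 9 temperature-responsive genes (median −0.39) 1 was higher, 2 lower and 6 not called, against 10.4% higher and 10.6% lower among all tested genes. Rbm3, a cold-induced RNA-binding protein gene, rose from 36.2 ± 4.65 to 54.4 ± 4.82 CPM (adjusted p = 0.0420), a call that held without Ide+/+ replicate 1 and was lost without any 1 of the other 7 libraries, and also with Ide+/+ replicates 2 and 3 counted as 1. Cirbp, also cold-induced and named after its values were seen, went the other way and was not called (log2 fold change −0.49, adjusted p = 0.177, edgeR). The heat shock gene Hspb1 fell from 12.1 ± 1.02 to 4.76 ± 0.45 CPM (adjusted p = 8.72e-04). Hspa1a fell from 9.89 ± 8.003 to 1.37 ± 0.21 CPM (adjusted p = 0.0101). That did not hold once Ide-/- replicate 3 was removed, and its reads may be shared with its near-identical copy Hspa1b. On log2(TPM + 1) values limma called neither Hspb1 (−0.40, adjusted p = 0.317) nor Hspa1a (−0.92, adjusted p = 0.0547).

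Of 10 immediate early and cAMP-responsive genes 9 were tested (median −1.23), with 5 lower and 0 higher (edgeR, also 0 higher at an unadjusted p under 0.05, and 1 higher by limma on log2(TPM + 1)). Among all tested genes 10.6% were lower by edgeR, and limma on log2(TPM + 1) called 5987 of the 16266 higher. Junb fell from 6.14 ± 1.84 to 1.02 ± 0.42 CPM (adjusted p = 0.00102), Jun from 29.4 ± 9.87 to 6.76 ± 2.43, Ier2 from 11.8 ± 3.87 to 4.02 ± 0.57 and Btg2 from 92.9 ± 25.5 to 41.3 ± 10.8 CPM. The fifth was Egr1 (log2 fold change −1.23, adjusted p = 0.0453), named after its value was seen. Btg2 was lost without Ide-/- replicate 2 or 3, and Egr1 without any 1 of Ide+/+ replicates 2, 3 and 5 and Ide-/- replicates 1 and 2, or with Ide+/+ replicates 2 and 3 counted as 1 (adjusted p = 0.06). On log2(TPM + 1) values limma called Junb (adjusted p = 0.0269) and Jun (0.0408) lower, but not Ier2 (0.196), Btg2 (0.547) or Egr1 (0.577). Without Ide-/- replicate 2, 3 of these genes were lower by edgeR, beside 809 of all 17031 tested genes. Without Ide+/+ replicate 1, 7 were, beside 2139 of all 16028 tested genes. Per1, which shares its quick response with this group, had a log2 fold change of 0.54 and was not called.

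The genes whose profile over the 8 libraries was nearest to that of Arntl were Hyal2 (a hyaluronidase gene), Atp5d (a subunit of the mitochondrial ATP synthase), Cdc42se1, Pdxk (pyridoxal kinase) and Akr7a5. Their log2 CPM, centred on the gene's mean, differed from that of Arntl by a root mean square of 0.12 to 0.15 among 8464 candidates. Nearest to Dbp were Rnf113a2, 2610044O15Rik8, Hnrnpd (an RNA-binding protein gene), Rpp38 (a subunit of RNase P) and Parp2 (a DNA repair enzyme gene), at 0.12 to 0.15. The clock genes described above were left out of this ranking. None of the genes of the other clock list was among either 5, which says little with so few places among 8464 candidates. The profiles span the genotype split and the acinar split, which all genes share.

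**Figure D5:**
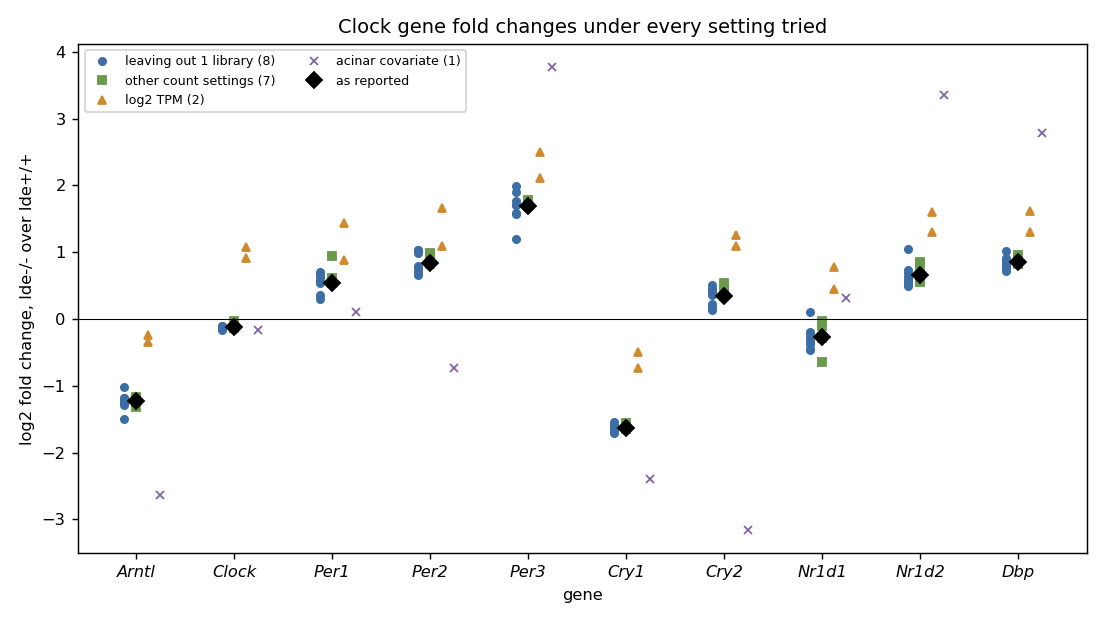
Log2 fold change of each clock gene as reported (black diamonds), with 1 library left out (blue), with other count-based settings (green), on log2 TPM (orange) and with an acinar share term (purple). Arntl and Cry1 stay below 0 and Per3 and Dbp above 0 in every setting shown, while Clock, Per2, Cry2 and Nr1d1 change sign in at least 1.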

How the data were processed

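RNA sequencing of 8 islet samples was used. Per the submitters' processing notes, reads were aligned with STAR 2.7.1a and quantified with RSEM 1.3.1 on GRCm38. Neither the annotation release nor the strand setting is given in the sources used here. Expected counts and TPM values were what the authors deposited, from RSEM (expected counts are not normalized, and share reads among genes by a model), in 1 table per sample with 55487 Ensembl identifiers, of which 55141 matched a symbol in a table of gene names. Positions and exon overlaps are from GENCODE M21 and promoters from RefSeq. Expected counts were rounded to whole numbers and tested with edgeR 4.0.16 in R 4.3.3 (quasi-likelihood F test, robust, TMM scaling, genotype as the only term, default filter with a minimum count of 10 and total of 15). P-values were Benjamini-Hochberg adjusted over all tested genes. The SE was taken from the ratio of the log2 fold change to the root of F. Alternatives used DESeq2 1.42.0 and limma 3.58.1. On simulated counts of 15517 tested genes, of which 200 were changed, 24% of 2-fold and 92% of 4-fold changes were called. Of the 123 calls 7 were false.

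The clock genes and all other lists were chosen with earlier results of these data known. The genes to name were the 10 clock genes, Ide, up to 4 called members of each other list by smallest p, and the 5 genes nearest to Arntl and to Dbp (with a mean of at least 5 CPM). A gene that is counted in the list of other clock genes is not reported here by name.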

Additional observations from a re-analysis of the deposited data

Results flagged for a closer look

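Among 25 gene levels and shares examined in the 5 Ide+/+ libraries, 3 had 1 library far from the other 4 by a gap test that chance passes in about 1 of 20 groups. Per1 was 1.6 CPM in Ide+/+ replicate 1 and 7.51 to 9.34 CPM in the other 4. Nr1d2 was 31.7 CPM in the same library and 8.36 to 14.8 CPM in the others. Jun was 46.7 CPM in Ide+/+ replicate 4 and 22.6 to 27.3 CPM in the others.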

How the results depend on the processing

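Per3, Dbp, Arntl and Cry1 kept their direction under all 18 alternatives. Leaving out Ide+/+ replicate 1 moved the median of the 10 clock genes to 0.22. Leaving out 1 library at a time gave 694 to 2141 higher and 809 to 2139 lower genes overall (993 and 1101 without Ide+/+ replicate 4, 864 and 971, 785 and 809, and 694 and 853 without Ide-/- replicates 1, 2 and 3), 0 to 3 clock genes higher and 2 lower in each case, and a clock median of 0.22 to 0.54. It gave 0 to 4 other clock genes higher and 0 to 4 lower, 1 to 4 glucocorticoid-induced genes lower, 0 to 1 temperature-responsive genes higher and 1 to 2 lower, and 3 to 7 immediate early genes lower. The clock genes called higher were 1 without Ide+/+ replicate 4 or Ide-/- replicate 2 and 0 without Ide-/- replicate 3. Where a count changed below, the cause was not tested.

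DESeq2 called 4 other clock genes lower, and limma-voom 1 glucocorticoid-induced gene lower. Without a low-count filter 1 other clock gene was higher, 1 glucocorticoid-induced gene lower, and 0 temperature-responsive genes higher and 1 lower. Scaling to secretory granule genes gave 878 higher and 860 lower genes, 1 clock gene higher, 1 other clock gene higher and 0 lower, 1 glucocorticoid-induced gene lower and 0 temperature-responsive genes higher. Counting Ide+/+ replicates 2 and 3 as 1 library, chosen after seeing the data, gave 0 temperature-responsive genes higher and left the 2 and 2 clock genes.

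On log2(TPM + 1) values limma called 5987 genes higher and 412 lower, with 5 clock genes higher and 0 lower, 10 other clock genes higher and 0 lower, 2 glucocorticoid-induced higher and 0 lower, 2 temperature-responsive higher and 0 lower, and 1 immediate early gene higher and 2 lower. The clock median was 1 beside 0.50 for all genes, and Clock (0.91) and Nr1d1 (0.45) turned sign. On log2(TPM + 0.1) values 4772 genes were higher and 385 lower, with 4 clock genes higher and 0 lower, 5 other clock genes higher and 0 lower, 2 glucocorticoid-induced higher and 0 lower, 0 temperature-responsive genes lower, and 1 immediate early gene higher and 1 lower. The clock median was 1.35 beside 0.83 for all genes, and Clock (1.08) and Nr1d1 (0.79) turned sign.

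With an acinar share term edgeR called 0 genes higher and 0 lower (931 at an unadjusted p under 0.05), and thus 0 in every list. The clock median was −0.031, and Per2 (−0.74), Cry2 (−3.15) and Nr1d1 (0.31) turned sign. Nr1d1 also turned sign without Ide+/+ replicate 1 (0.11), and ran from −0.46 to 0.11 over the libraries left out. With the acinar share term Noct, Sgk1, Ier2 and Egr1 turned sign too.

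Samples of the 2 genotypes share replicate numbers, but the deviations of same-numbered samples correlated at only 0.08, −0.05 and −0.16. No Ide-/- sample correlated best with its own number. Samples of unlike number correlated at −0.529 to 0.442. Pairing by number is thus not seen, but so few pairs cannot exclude it. With the replicate block 465 genes were higher and 706 lower, with 1 clock gene higher, 1 other clock gene higher and 0 lower, 1 glucocorticoid-induced gene higher and 1 lower, 0 temperature-responsive genes higher and 3 immediate early genes lower. Dbp was not called with the block (adjusted p = 0.0986).

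The mean log2 ratio of Arntl to Dbp differed by −2.01 between the genotypes (−2.39 to −1.65 with 1 library left out). With Per3 in place of Dbp the difference was −2.92 and with Nr1d1 −1.22. Depth limits the low genes: Per1, Nr1d1, Cry1, Arntl and Dbp rested on 16, 20, 26, 27 and 30 counts in their lowest libraries. Simulated 2-fold changes were called in 24% of cases, but only 200 genes were changed there, while 3426 genes were called in the data. The rate therefore cannot be carried over to these data. An uncalled clock gene may still differ. The SE of these genes ran from 0.16 (Clock) to 0.44 (Nr1d1) on the log2 scale. A difference can exceed 1 SE, as the Per2 estimate did (0.84, SE 0.32).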

Other observations

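Of the other clock genes, 3 are given here that were named after their values were seen. Ciart, a repressor of the CLOCK pair, had 1.80 to 3.42 CPM in Ide+/+ and 3.12 to 5.96 CPM in Ide-/- libraries (log2 fold change 0.87, SE 0.29, adjusted p = 0.0501, edgeR). DESeq2 called it (adjusted p = 0.029), as did edgeR without Ide+/+ replicate 4 (0.0467) or Ide-/- replicate 1 (0.048). Csnk1d, the kinase gene that marks period proteins for decay, had 19.9 to 21.6 CPM in Ide+/+ and 14.9 to 15.7 CPM in Ide-/- with no overlap, as in 15.6% of tested genes with Ide-/- lower (log2 fold change −0.43, SE 0.16, adjusted p = 0.0683). It was called lower without Ide+/+ replicate 1 (−0.42, adjusted p = 0.0313, edgeR) and by DESeq2 (adjusted p = 0.017), and its sign turned on log2(TPM + 1) values (0.41, adjusted p = 0.325, limma). Npas2, a stand-in for Clock that is known to cycle with Arntl, was too scarce to read, at 0.301 to 1.001 and 0.278 to 0.550 CPM.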
